A study of Mus musculus with 8 samples.

Results

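The comparison described here is the first hour after release from mitotic arrest in mouse pluripotent stem cells. Its members are 4 of the 8 libraries of the series, 2 of early G1 cells and 2 of mitotic cells, chosen by their sample labels, and all genes with enough counts were compared between them. The cells were male induced pluripotent stem cells, which the sample titles call ESC, of 2 independent clones, cultured with irradiated feeders in medium that held serum, LIF, a MEK inhibitor and a GSK3 inhibitor. They were passaged to gelatin a day before synchronisation and arrested by nocodazole (200 ng/ml, 6 h). Mitotic cells were shaken off and taken at once, and early G1 cells were washed free of drug, plated on gelatin and collected after 1 h. Every synchronised group therefore shares the drug and the shake-off. Late G1 libraries, from 3 h after release, and asynchronous libraries are given beside these only as reference levels. Each group had n = 2 libraries. The labels do not say which clone gave which library, so p-values measure the spread between these samples. Poly(A) RNA was read in single reads of 50 bases, and total counts were 24476915 and 23471553 in mitotic libraries 1 and 2 and 21067481 and 25615244 in early G1 libraries 1 and 2.

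Nocodazole blocks the growth of microtubules and so keeps the spindle checkpoint active. Once the drug is gone, the anaphase-promoting complex tags cyclin B and securin for destruction, chromosomes separate, and the nucleus and its transcription are rebuilt. Most transcription is low on condensed mitotic chromosomes and resumes as the nucleus re-forms. In pluripotent stem cells G1 is short, and it is the phase in which the cells respond most readily to signals for differentiation.

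Of 54838 genes in the table, 19101 were tested with edgeR's quasi-likelihood test, fitted to all 8 libraries, and 885 (4.63%) passed a Benjamini-Hochberg adjusted p of 0.05 and are said to be called. Among them, 613 (3.21% of all tested) were higher and 272 (1.42%) lower in early G1. The median log2 change was 1.30 among the genes called higher and -1.20 among those called lower, against -0.011 over all genes tested. Of all genes tested, 2.3% were called higher and 0.869% lower with a change of at least 2-fold. Changes of at least 4-fold were seen for 143 genes that rose and 99 that fell. The libraries of the 2 states did not overlap for any called gene, but the test selects such genes, so this adds no support. Between late and early G1 the same fit called 0 of 19101 genes. Late G1 levels below that differ from early G1 are therefore described without support from the test. In bulk RNA, fewer cells of a type and less RNA per cell cannot be told apart, and a level is a share of the library and not an amount per cell.

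**Figure D1:**
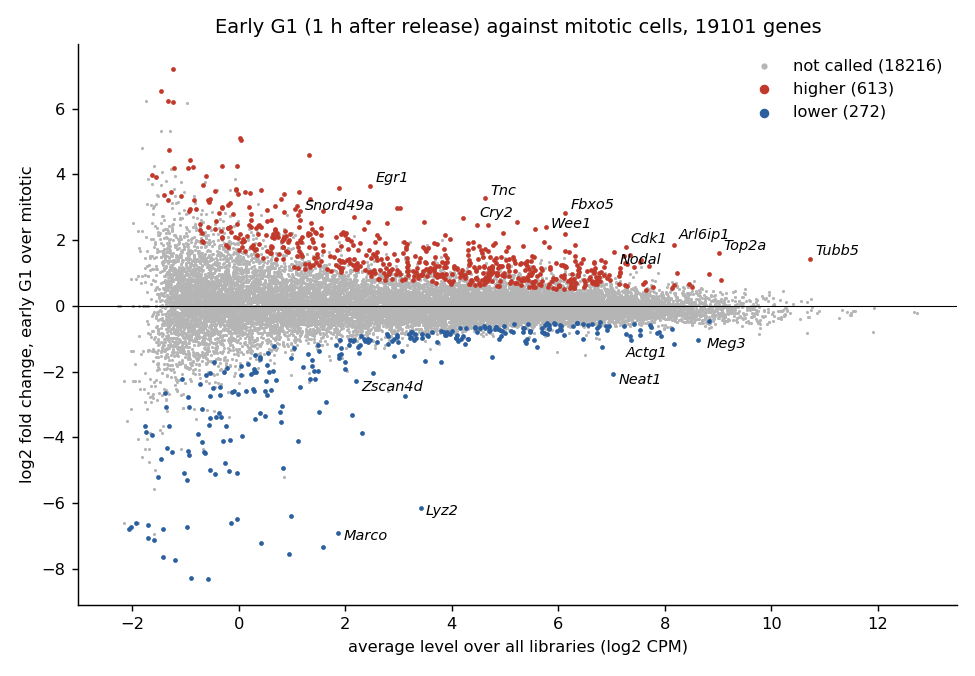
Log2 fold change of early G1 over mitotic cells (vertical axis) against the average level over all libraries in log2 CPM (horizontal axis), with 1 point per gene. The 613 genes called higher are red, the 272 called lower are blue and the others are grey. Tubb5, Top2a and Arl6ip1 are among the most abundant genes that rose. Lyz2 and Marco lie far below 0, at -6.16 and -6.91, and C1qb and C1qc, which are not labelled, lie at -7.32 and -7.56.

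The size of this set rested on how the spread was estimated. The biological coefficient of variation, the spread between replicates beyond counting error, was 0.183 in mitotic and 0.0506 in early G1 libraries, but 0.291 in the asynchronous libraries, which share the estimate. A fit of the 6 synchronised libraries called 13.2% of genes higher and 11.1% lower, and it called 880 of the 885. Each count of a list below is to be read beside these shares of all genes, 3.21% higher and 1.42% lower with all 8 libraries, and 13.2% and 11.1% with the 6 synchronised ones. Each library was left out in turn. Without any 1 of the 4 mitotic and early G1 libraries, between 42 and 144 genes were called, and without a late G1 library 227 or 228. Without asynchronous library 1 or 2 all 885 kept their call, and 626 of them were called in those 2 of the 8 fits only. The 35 genes called in all 8 fits comprised 28 that rose and 7 that fell. For many of the other genes named below, the highest adjusted p over these 8 fits is given as the leave-one-out maximum, and for most lists the range of the count. Some genes, such as Egr1, Fbxo5, Nodal and Plk3, belong to more than 1 list, so the counts of lists overlap.

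The label of pluripotent cells was checked against marker genes. Pou5f1 stood at 2060 and 2121 CPM (counts scaled by TMM to a common library size) in the mitotic libraries and at 1955 and 1761 CPM in early G1. Nanog stood at 912 and 996 CPM in mitotic and 826 and 830 CPM in early G1 libraries. These transcription factor genes of the pluripotent state were abundant in all 4 libraries, and neither passed the test (adjusted p = 0.566 and 0.300, edgeR). Of 32 genes of naive pluripotency tested, 1 rose and 1 fell, with a median log2 change of -0.00095. Klf2, a Kruppel-like factor gene, fell from 240.3 and 227 CPM to 130.5 and 120.1 CPM (log2 change -0.90, leave-one-out maximum 0.151). The fit of the 6 synchronised libraries called 3 of the 32 higher and 6 lower.

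Some genes that drive entry into mitosis or guard its exit were among the most firmly called rises. Arl6ip1, described beside them, was chosen after its values were seen. Arl6ip1, which encodes a protein that shapes the endoplasmic reticulum (ENSMUSG00000030654, GRCm38 chromosome 7, 118118891 to 118129662, minus strand), stood at 101.5 and 100.1 CPM in the mitotic libraries and 364.5 and 356.5 CPM in early G1. Cdk1, the kinase gene of mitotic entry, stood at 51.4 and 52.1 CPM in mitotic libraries and 185 and 175 CPM in early G1. Both early G1 libraries lay more than 3-fold above both mitotic ones for either gene. The log2 change was 1.84 ± 0.11 (SE) for Arl6ip1 and 1.80 ± 0.12 for Cdk1, each with adjusted p = 7.25e-04. Wee1, whose product holds the Cdk1 kinase inactive, rose together with it, from 14.7 and 12.4 CPM to 71.9 and 71.8 CPM (log2 change 2.41 ± 0.18, adjusted p = 0.00104).

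In all, 64 genes of the anaphase-promoting complex and of mitotic exit were tested, and 10 rose and 1 fell, with a median log2 change of -0.031. The count of members that rose ran from 5 to 21 when 1 library was left out. In the 6 synchronised libraries 19 rose and 16 fell. These were 29.7% and 25% of the list, against 13.2% and 11.1% of all genes, so falls as well as rises exceeded the share of all genes there. Fbxo5, an inhibitor of the complex (ENSMUSG00000019773, chromosome 10, 5799160 to 5805600), stood at 12.3 and 12.7 CPM in mitotic libraries and 90.6 and 87.8 CPM in early G1, and at 97.8 and 100.3 CPM in late G1. Bub3, a gene of the spindle checkpoint, stood at 39.8 and 41.6 CPM against 112 and 104.5 CPM (log2 change 1.41 ± 0.11, adjusted p = 0.00166). Top2a, which encodes the enzyme that untangles sister chromosomes, stood at 140 and 121 CPM against 382 and 406 CPM (log2 change 1.59 ± 0.15, adjusted p = 0.00264). The 3 genes were called in every fit that left out 1 library. Ube2c, the E2 enzyme gene of the complex, rose from 53.6 and 50.8 CPM to 137 and 128 CPM and stood at 75.6 and 70.4 CPM in late G1 (leave-one-out maximum 0.0581). Aurkb, the kinase gene of the chromosomal passenger complex, rose with a log2 change of 1.30, and Cenpf, Fzr1 and Pttg1 with log2 changes between 0.72 and 1.00. Ndc80, a kinetochore gene, fell by 0.54 on the log2 scale, with a leave-one-out maximum of 0.349, and was not called when libraries were scaled by library size only (adjusted p = 0.0788). Plk1 and Cdc20, a mitotic kinase gene and an activator gene of the complex, stood at 163 and 154 CPM against 135 and 129 CPM and at 632 and 574 CPM against 451 and 413 CPM, and neither passed the test (adjusted p = 0.214 and 0.128).

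Promoter sequence was read for the cell cycle genes because many of them carry a CHR element (TTTGAA) near a CCAAT box, both bound in complexes that time transcription in G2 and mitosis. RefSeq gave a promoter window of 300 bases, from 250 before to 50 after the start (GRCm38.p6), for 53 of the 64 genes. The letters TTTGAA, on either strand, were in 27 of the 53 (50.9%) and in 12.03% of the promoters of all 12246 matched genes. Counting only the bases before the start lowered this to 22.6%, against 10.7% of all promoters. CCAAT, on either strand, was in 69.8% of the 53 and 38.5% of all. Of the 8 members that rose and had a window, 6 held TTTGAA, namely Bub3, Cdk1, Cenpf, Fbxo5, Top2a and Ube2c. A match describes letters and no binding. The 150 bases before the start are shown for the 3 genes that held both motifs there, 5′ to 3′ on the gene's strand, with TTTGAA and CCAAT, or their reverse complements TTCAAA and ATTGG, in capitals.
Cdk1 (chr10:69352913-69353062, minus strand): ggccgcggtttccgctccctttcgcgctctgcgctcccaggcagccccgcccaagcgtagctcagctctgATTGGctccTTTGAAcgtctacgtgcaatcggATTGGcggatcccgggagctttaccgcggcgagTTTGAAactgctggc
Top2a (chr11:99024190-99024339, minus strand): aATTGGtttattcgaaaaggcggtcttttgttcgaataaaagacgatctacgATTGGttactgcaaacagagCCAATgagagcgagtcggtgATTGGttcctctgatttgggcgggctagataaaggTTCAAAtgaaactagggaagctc
Ube2c (chr2:164769779-164769928, plus strand): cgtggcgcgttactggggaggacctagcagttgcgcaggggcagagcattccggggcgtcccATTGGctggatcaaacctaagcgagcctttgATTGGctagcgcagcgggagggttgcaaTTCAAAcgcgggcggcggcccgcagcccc
In Cdk1 the TTTGAA matches began 15 and 71 bases before the RefSeq start. GENCODE M21 starts Cdk1 at 69352938, within the bases shown, so the nearer match lies after that start. In Top2a and Ube2c the reverse complement began 23 and 29 bases before the RefSeq start.

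**Figure D2:**
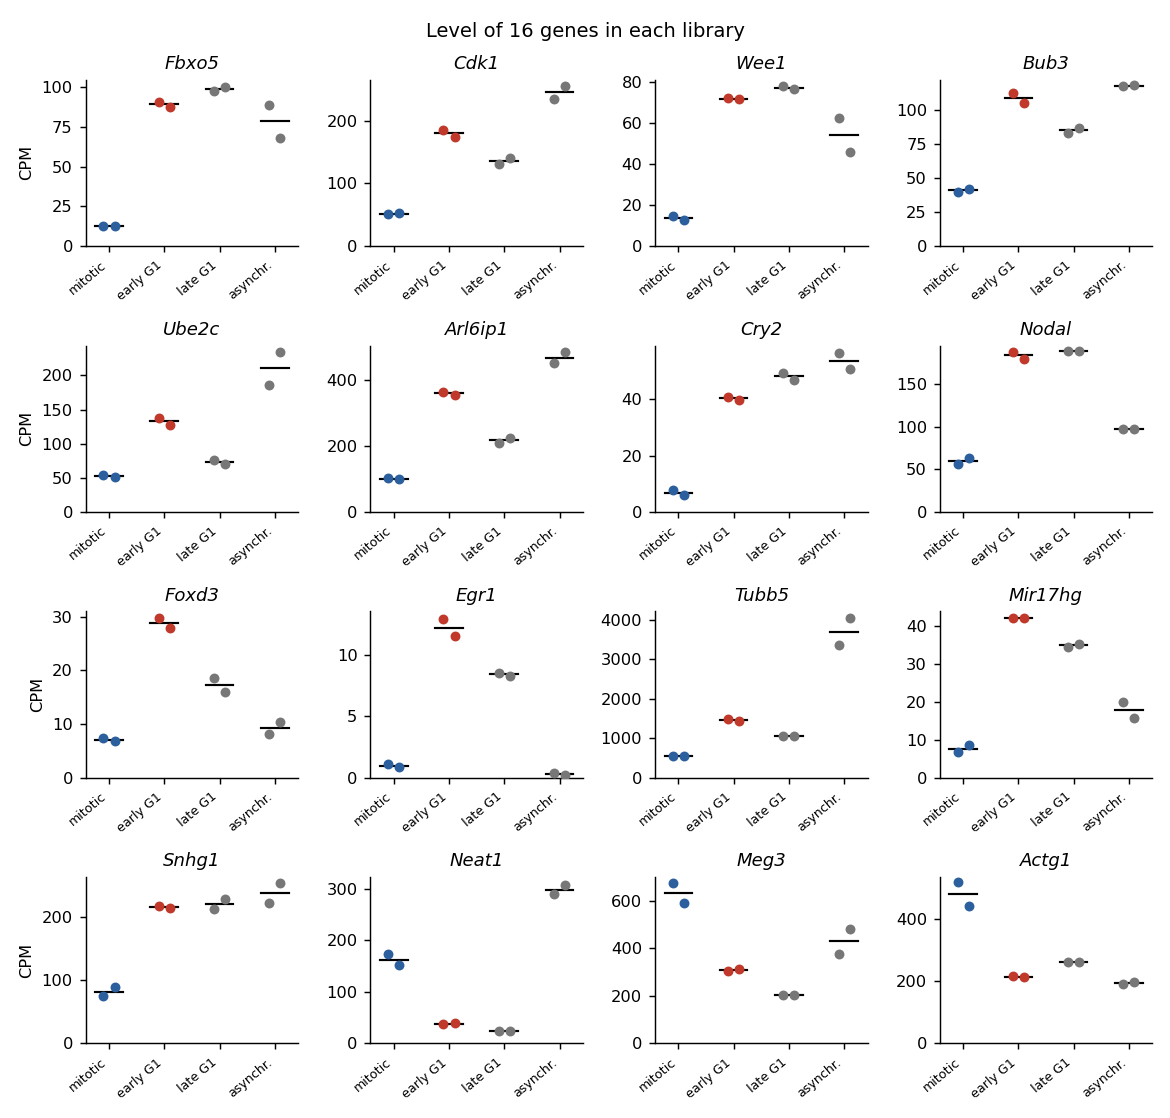
Level of 16 genes in CPM (vertical axis of each panel, from 0) in the 2 libraries of each state, with 1 point per library and a bar at the mean. Mitotic points are blue, early G1 points red and the others grey. In all 16 panels both early G1 points lie on 1 side of both mitotic points. Fbxo5, Wee1 and Cry2 stay near their early G1 level in late G1. Ube2c and Arl6ip1 lie lower in late G1, but no gene passed the test between early and late G1.

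Genes of the passage from G1 to S phase, many of them targets of the E2F factors, came next. Of 67 tested, 9 rose, with a median log2 change of 0.19, and 55 of the 67 had a positive change. The count ran from 1 to 28 when 1 library was left out and was 28, with 5 lower, in the 6 synchronised libraries. The E2F repressor genes E2f8 and E2f7 rose with log2 changes of 1.25 and 1.06. E2f8 stood at 44.5 and 35.8 CPM in mitotic libraries and 91.9 and 99.1 CPM in early G1 (leave-one-out maximum 0.221). Slbp, the gene of the histone mRNA binding protein, stood at 74.2 and 64.8 CPM against 123 and 120.0 CPM. Cdc6, needed to load the replicative helicase, stood at 81.0 and 70.8 CPM against 125 and 132 CPM. Cdkn1a, the p21 inhibitor of cyclin-dependent kinases, rose from 48.0 and 70.0 CPM to 152 and 138 CPM (log2 change 1.30 ± 0.24, leave-one-out maximum 0.170). Cdkn1a also belongs to the p53 targets. Of 36 of these, 5 rose and 1 fell, with a range of 0 to 16 that rose when 1 library was left out, and 15 rose and 3 fell in the 6 synchronised libraries. The others that rose were Plk2, Ddit4l, Pidd1 and Pmaip1. Pmaip1 encodes the death-promoting protein Noxa, and stood at 47.2 and 54.6 CPM in mitotic and 107 and 105.5 CPM in early G1 libraries (log2 change 1.06 ± 0.13, leave-one-out maximum 0.0895). Plk3, a kinase gene, was the 1 that fell, by 0.68 on the log2 scale. Among 21 genes of the BCL2 family Pmaip1 and Bcl2l11, which encodes the death-promoting protein Bim, rose. These were 9.52% of the list, against 3.21% of all genes, and the median log2 change of the list was -0.083. In the 6 synchronised libraries 15% of the list rose and 15% fell, near the 13.2% and 11.1% of all genes.

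Circadian clock genes included 6 that rose among 24 tested, with a median log2 change of 0.36 and a range of 1 to 9 when 1 library was left out. Cry2, a repressor of the CLOCK and BMAL1 activators, stood at 7.71 and 5.96 CPM in mitotic libraries, 40.76 and 39.95 CPM in early G1 and 49.4 and 47.0 CPM in late G1. Nr1d1, the gene of the repressor REV-ERB alpha, stood at 3.62 and 3.63 CPM against 11.3 and 12.8 CPM (log2 change 1.73 ± 0.18, leave-one-out maximum 0.0660). Bhlhe40, another repressor gene, rose from 8.43 and 11.1 CPM to 25.5 and 26.5 CPM. The output factor genes Tef and Hlf rose with log2 changes of 1.13 and 1.51, and Cry1 rose with a log2 change of 0.64. The period genes did not pass the test: Per1 stood at 46.7 and 27.4 CPM in mitotic and 40.1 and 43.6 CPM in early G1 libraries (adjusted p = 0.716).

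Genes that answer growth factor signals rose in part. Of 45 immediate early genes 7 rose and 2 fell, with a median log2 change of 0.40, and the count that rose ran from 1 to 16 when 1 library was left out. These were 15.6% and 4.44% of the list, against 3.21% and 1.42% of all genes tested. In the 6 synchronised libraries 16 rose and 5 fell, 35.6% and 11.1% of the list, against 13.2% and 11.1% of all genes. Btg1, an antiproliferative gene, stood at 15.8 and 14.2 CPM in mitotic libraries, 38.0 and 36.4 CPM in early G1 and 49.1 and 52.1 CPM in late G1. Fos, a subunit gene of the AP-1 factor, stood at 4.47 and 4.92 CPM in mitotic and 9.92 and 9.73 CPM in early G1 libraries, and its partner gene Jun stood at 36.5 and 30.6 CPM against 31.9 and 31.6 CPM (adjusted p = 0.824). Among 21 genes of ERK feedback and ETS targets 4 rose, Egr1, Spry4, Dusp6 and Spry2. The labelled culture medium holds a MEK inhibitor, which lowers ERK activity. Dusp6, a phosphatase gene that acts on ERK, stood at 10.9 and 8.33 CPM against 28.8 and 33.1 CPM (log2 change 1.69 ± 0.20, leave-one-out maximum 0.0835). Spry2, a feedback inhibitor gene, stood at 11.5 and 12.7 CPM against 31.3 and 31.8 CPM (log2 change 1.38 ± 0.16, leave-one-out maximum 0.0787). The 4 genes lay lower in asynchronous than in early G1 libraries, with Spry4 at 0.876 and 1.82 CPM there against 41.9 and 44.5 CPM.

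Ligand and target genes of the TGF-beta family rose for a few members. Of 22 genes of Nodal and TGF-beta feedback, 3 rose, among them the ligand gene Nodal and Smad7, an inhibitor gene of the receptors that was not called under a filter of 1 CPM in 4 samples (adjusted p = 0.0504). Nodal stood at 56.0 and 62.8 CPM in mitotic libraries, 188 and 180 CPM in early G1, and 189 CPM in both late G1 libraries. The inhibitor genes Lefty1 and Lefty2 did not pass the test, Lefty1 at 15.5 and 27.4 CPM against 20.1 and 18.9 CPM. Among 17 genes of the ID and BMP response Hes1, Id3 and Smad7 rose. Hes1, a repressor gene, stood at 16.1 and 19.99 CPM against 44.8 and 41.7 CPM (log2 change 1.26 ± 0.16, leave-one-out maximum 0.0805). Of 23 genes of formative and primed pluripotency 4 rose, among them Nodal and Spry4, which also belong to lists above. In the 6 synchronised libraries 8 of the list rose. Foxd3, a forkhead factor gene, stood at 7.29 and 6.78 CPM in mitotic libraries and 29.9 and 27.97 CPM in early G1. In late G1 it stood at 18.6 and 15.9 CPM, a difference from early G1 that did not pass the test. Sox4 rose with a log2 change of 1.64 from 2.95 and 1.77 CPM to 6.52 and 8.23 CPM.

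Of 24 Wnt targets 1 rose (4.17%), Znrf3, and 1 fell (4.17%), Notum, both feedback inhibitors of the pathway. In the 6 synchronised libraries 10 rose, 41.7% of the list against 13.2% of all genes. Znrf3 was not called with scaling by library size only (adjusted p = 0.0537). Among 10 genes of the aryl hydrocarbon receptor and its targets 3 rose. Cyp1b1, a cytochrome P450 gene, stood at 1.18 and 1.94 CPM against 5.29 and 6.41 CPM (log2 change 1.91 ± 0.27, leave-one-out maximum 0.123). Tiparp, a feedback inhibitor gene of the receptor, rose with a log2 change of 0.97. Among 26 genes of cholesterol synthesis 4 rose, among them Hsd17b7, Insig1 and Cyp51, and 12 rose in the 6 synchronised libraries. Insig1, a brake on the pathway's activators, stood at 55.6 and 71.4 CPM against 117 and 116 CPM.

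Some genes called in every fit fell outside the lists, and they are named here after their values were seen. Slfn9, a Schlafen family gene, stood at 12.2 and 10.4 CPM in mitotic libraries and 51.7 and 62.3 CPM in early G1, and Setd1b, which encodes a histone H3 lysine 4 methyltransferase, at 15.8 and 16.2 CPM against 52.1 and 57.9 CPM. Nfkbia, the inhibitor gene of NF-kappa-B, stood at 19.5 and 18.3 CPM against 54.1 and 52.8 CPM. Irf2bp2, a corepressor gene, rose with a log2 change of 1.68, and Vamp2, Elmsan1, Mars2, Fam43a and Zfp715 with log2 changes between 1.35 and 2.15.

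The tubulin genes split. Tubb5, a beta-tubulin gene, stood at 535 and 539 CPM in mitotic libraries, 1476 and 1424 CPM in early G1 and 3359 and 4044 CPM in asynchronous cells (log2 change 1.43 ± 0.12, adjusted p = 0.00204). Tuba1c rose from 28.9 and 31.3 CPM to 76.9 and 78.8 CPM (leave-one-out maximum 0.169), and Tuba3a rose, but was not called with RLE or upper quartile scaling (adjusted p = 0.0520 and 0.0507). Tuba1a fell from 220 and 212 CPM to 125.5 and 105.0 CPM (log2 change -0.90, leave-one-out maximum 0.207), and Tubb4a fell, but was not called with scaling by library size only (adjusted p = 0.0524). In all 3 rose and 2 fell among 24 tested, with 5 and 7 in the 6 synchronised libraries. Alpha-tubulin genes are close in sequence, so reads could be split among them. Of 27 genes of the actin cytoskeleton and of SRF and YAP targets 1 rose and 6 fell, with a median log2 change of -0.38, and 11 fell in the 6 synchronised libraries. Actg1, a cytoplasmic actin gene, stood at 516 and 439 CPM in mitotic libraries and 216.5 and 211 CPM in early G1 (log2 change -1.16 ± 0.12, leave-one-out maximum 0.0763). Cnn2, a calponin gene, fell from 220 and 148 CPM to 79.0 and 74.3 CPM, and Myl9, a myosin light chain gene, from 52.0 and 33.3 CPM to 15.5 and 13.4 CPM. The tropomyosin genes Tpm1, Tpm2 and Tpm4 fell by 0.79, 1.12 and 0.74 on the log2 scale.

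A list of genes whose transcripts carry small RNAs had the highest median of the 26 lists, a log2 change of 0.87. It does not stand for all such hosts, since the 21 hosts of the snoRNA genes called higher, described below, had a median of -0.13. Of 29 small RNA host genes 13 rose, and 26 of 29 had a positive change. The count ran from 2 to 17 when 1 library was left out and was 17, with 2 lower, in the 6 synchronised libraries. Snhg1 stood at 74.1 and 89.4 CPM in mitotic libraries and 216 and 214 CPM in early G1 (log2 change 1.40 ± 0.14, adjusted p = 0.00300), and it was called in every fit. Snhg12 stood at 20.3 and 25.6 CPM against 81.1 and 85.7 CPM, and Dancr at 8.55 and 9.24 CPM against 33.3 and 29.0 CPM. Zfas1 rose from 44.7 and 56.8 CPM to 143 and 145 CPM. These levels were near those of late G1, where Snhg1 stood at 211 and 227 CPM.

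Mir17hg, the host gene of the miR-17-92 cluster (ENSMUSG00000089726, chromosome 14, 115042879 to 115046727), rose from 6.83 and 8.46 CPM to 42.0 CPM in both early G1 libraries (log2 change 2.46 ± 0.18, adjusted p = 9.89e-04). RefSeq places 11 mature miRNAs within it on the plus strand (GRCm38.p6). The libraries measured the host transcript and not the mature miRNAs. Of these 11, 6 are shown by their seeds, bases 2 to 8, in capitals, since those letters choose the targets.
mmu-miR-17-5p: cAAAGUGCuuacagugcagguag
mmu-miR-20a-5p: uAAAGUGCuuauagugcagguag
mmu-miR-19a-3p: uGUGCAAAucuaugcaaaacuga
mmu-miR-19b-3p: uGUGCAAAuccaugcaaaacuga
mmu-miR-18a-5p: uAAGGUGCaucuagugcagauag
mmu-miR-92a-3p: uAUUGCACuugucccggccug
The 17 and 20a miRNAs share the seed AAAGUGC, and the 19a and 19b miRNAs share GUGCAAA.

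Long noncoding RNAs of the nucleus went both ways, with 2 that rose and 3 that fell among 33 tested. Neat1, the scaffold of paraspeckles (ENSMUSG00000092274, chromosome 19, 5824708 to 5845478), fell from 173 and 151.5 CPM to 37.8 and 39.3 CPM, and stood at 24.7 and 24.4 CPM in late G1. Meg3, an imprinted noncoding gene of the Dlk1-Dio3 region, fell from 676 and 593 CPM to 305 and 315 CPM (log2 change -1.03 ± 0.14, leave-one-out maximum 0.130). Nespas, an imprinted antisense gene, fell by 1.53 on the log2 scale, and its value is uncertain because the strand setting of the counting is not given in the sources used here. Malat1 stood at 295 CPM in both mitotic libraries and 170 and 200 CPM in early G1 and did not pass the test (adjusted p = 0.294). Among 37 splicing regulators with detained introns 4 rose and 1 fell. Rsrp1 stood at 69.9 and 74.0 CPM in mitotic and 176 and 183 CPM in early G1 libraries (log2 change 1.32 ± 0.11, adjusted p = 0.00175), and Rbm5, an RNA binding protein gene, rose from 36.2 and 37.0 CPM to 87.6 and 92.8 CPM. Clk3, a kinase gene of splicing factors, fell by 0.70 on the log2 scale.

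**Figure D3:**
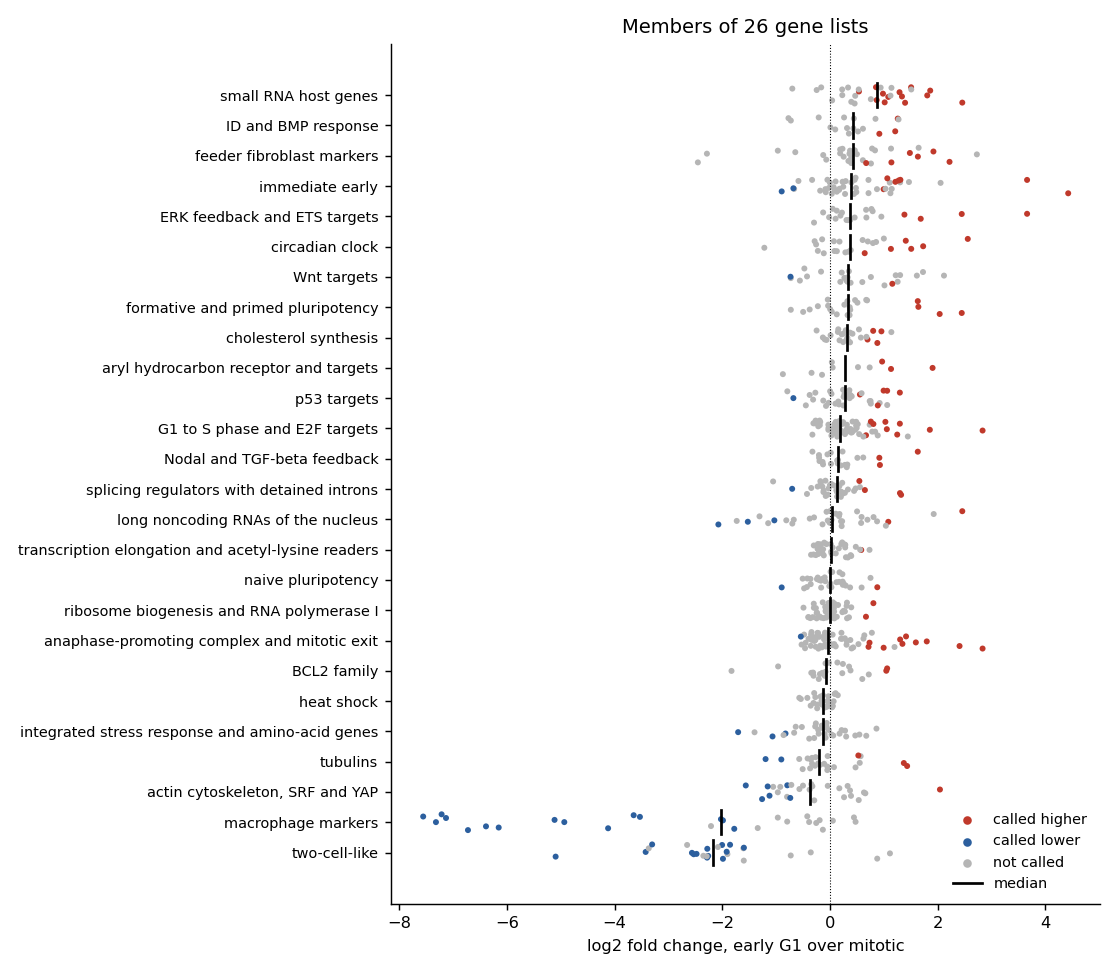
Log2 fold change of early G1 over mitotic cells (horizontal axis) for each tested member of 26 gene lists (rows, ordered by median), with 1 point per gene. Red and blue points were called higher and lower, grey points were not called, and black bars mark medians. The small RNA host genes have the highest median (0.87) and the two-cell-like genes and macrophage markers the lowest (-2.17 and -2.03).

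Genes of small nucleolar RNAs, which guide the chemical modification of ribosomal RNA, rose in 26 of 87 cases (29.9%, against 3.21% of all genes tested), with a median log2 change of 1.79 over the 87. The class was measured at low levels, with a median of -0.34 log2 CPM. Some members, such as Snord110, passed the count filter only through libraries other than the mitotic ones, which can raise this share and median. A kit that selects poly(A) RNA was used, and mature snoRNAs carry no poly(A) tail, and reads from the introns around them were not analysed here. All 26 lie in an intron of every annotated transcript of a host gene, 21 hosts in all, 10 of them ribosomal protein genes. Of these 21 hosts 2 were called higher, Snhg6 and Epb41l4aos, and 19 were not called. The median log2 change was 2.96 for the 26 snoRNA genes and -0.13 for their hosts, which ran from -0.85 to 1.29. The 6 largest changes among those with a Snord or Snora symbol are shown as DNA from the GENCODE M21 transcripts (GRCm38), with the boxes C and D of the C/D type (TGATGA and CTGA) or the ACA box of the H/ACA type in capitals.
Snord110 (chr2:130275506-130275573, plus strand, in Nop56): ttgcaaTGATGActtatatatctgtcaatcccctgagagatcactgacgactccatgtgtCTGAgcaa
Snord65 (chr11:62604515-62604586, plus strand, in 2410006H16Rik): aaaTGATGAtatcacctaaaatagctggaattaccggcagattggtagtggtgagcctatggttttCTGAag
Snord87 (chr1:9942463-9942549, minus strand, in Snhg6): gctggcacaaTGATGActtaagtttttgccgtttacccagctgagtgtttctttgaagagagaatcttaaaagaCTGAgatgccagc
Snord83b (chr15:80078498-80078591, minus strand, in Rpl3): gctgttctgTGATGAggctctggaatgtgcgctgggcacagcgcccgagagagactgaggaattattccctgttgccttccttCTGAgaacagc
Snora41 (chr1:63179004-63179135, plus strand, in Eef1b2): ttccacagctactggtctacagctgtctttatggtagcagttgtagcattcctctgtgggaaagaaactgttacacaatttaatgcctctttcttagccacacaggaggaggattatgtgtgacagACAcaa
Snord49a (chr11:62603450-62603521, plus strand, in 2410006H16Rik): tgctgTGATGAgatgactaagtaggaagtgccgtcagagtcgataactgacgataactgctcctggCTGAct
Snora41, in an intron of Eef1b2, a translation factor gene, stood at 0.464 and 0.345 CPM in mitotic libraries, 3.68 and 4.06 CPM in early G1, and 4.06 and 4.03 CPM in late G1 (log2 change 3.24 ± 0.32, adjusted p = 0.00308). Snord49a, in an intron of 2410006H16Rik, stood at 0.337 and 0.345 CPM against 2.69 and 2.94 CPM (log2 change 3.02 ± 0.29, adjusted p = 0.00300). Both were called in every fit that left out 1 library. Snord83b, in an intron of the ribosomal protein gene Rpl3, stood at 0.674 and 0.216 CPM against 6.00 and 4.87 CPM (leave-one-out maximum 0.0503). Snord110, in an intron of Nop56, had 0 counts in both mitotic libraries and 21 and 16 counts in early G1, at least 6.22-fold higher against a floor of 3 counts per library.

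**Figure D4:**
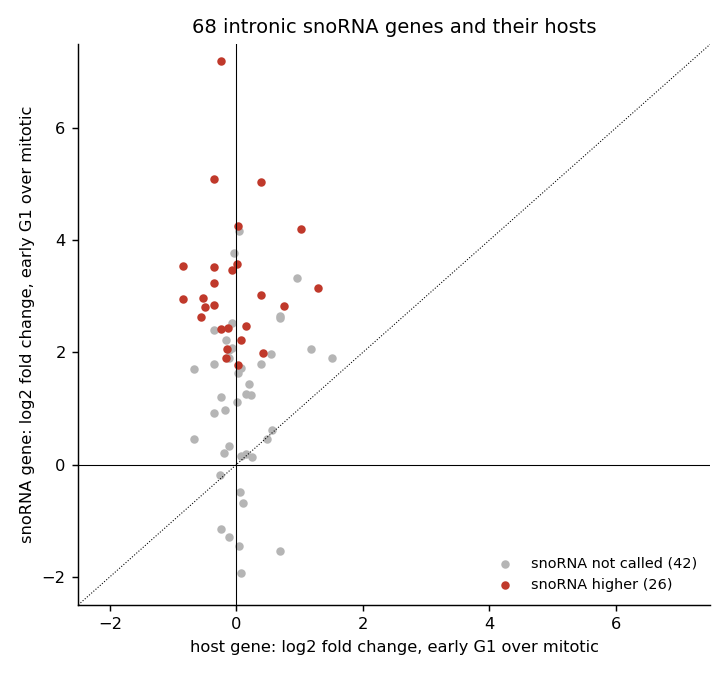
Log2 fold change of early G1 over mitotic cells for 68 intronic snoRNA genes (vertical axis) and their host genes (horizontal axis), with 1 point per snoRNA. The 26 called higher are red and the dotted line marks equal change. The red points lie above 0 on the vertical axis and between -0.85 and 1.29 on the horizontal one.

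Other classes of gene differed in how often they were called. Among 14739 protein coding genes 2.87% rose and 1.51% fell. Among 632 lincRNA genes 6.17% rose and 0.633% fell, and among 517 antisense genes 7.74% and 0.580%, the latter uncertain for the reason given for Nespas. Processed pseudogenes were called in 0.687% and 0.785% of 2039 cases. The noncoding classes were measured at lower levels, with a median of 0.052 log2 CPM for lincRNA against 4.41 log2 CPM for protein coding genes. Of protein coding genes with a genomic span under 5 kb 3.56% rose and 2.89% fell, and of those of 100 kb and over 1.24% and 1.55%. In the 6 synchronised libraries the shares that rose were 10.0% and 9.67%, and the highest share, 17.4%, was in genes of 50 to 100 kb. The order of the rises by span thus depended on the fit. For the falls, genes under 5 kb held the highest share in both fits, and it was 17.5% in the 6 synchronised libraries, against 11.2% at 100 kb and over.

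Genes that mark macrophages held the largest falls by the rule for named genes. Of 27 tested, 15 fell, with a median log2 change of -2.03, a range of 3 to 18 when 1 library was left out and 17 in the 6 synchronised libraries. Lyz2, the lysozyme gene of myeloid cells, stood at 28.7 and 30.8 CPM in mitotic libraries, 0.756 and 0.116 CPM in early G1, 0 in both late G1 libraries, and 9.44 and 14.7 CPM in asynchronous cells (log2 change -6.16 ± 0.55, adjusted p = 0.00355). The 0.116 CPM of early G1 library 2 rests on 3 counts, and the log2 change was -7.94 without early G1 library 1 and -5.29 without library 2. The complement genes C1qb and C1qc stood at 7.84 and 7.598 CPM and at 5.06 and 5.05 CPM in mitotic libraries. In early G1 they stood at 0.0945 and 0 CPM and at 0.0472 and 0 CPM. The log2 change of C1qb was -10.48 without early G1 library 1 and -6.27 without library 2, and that of C1qc -9.87 and -6.58. Marco, a scavenger receptor gene of macrophages that is not on the list, fell from 12.4 and 14.6 CPM to 0.142 and 0.0773 CPM. Msr1 and Cd53 had 0 counts in both early G1 libraries, at least 4.07- and 5.40-fold lower against a floor of 3 counts per library. The summed level of the list was 385 and 406 CPM in mitotic and 293 and 281 CPM in early G1 libraries, and Cd68, a lysosomal gene on the list, stood at 54.9 and 39.98 CPM against 43.7 and 39.4 CPM and did not pass the test. Gpnmb, a glycoprotein gene expressed in macrophages among other cells, fell from 18.3 and 26.2 CPM to 3.31 and 3.36 CPM (leave-one-out maximum 0.1002). The part of macrophages in these and in the other falls was not tested.

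Genes of the matrix and of fibroblasts, listed because the cells were grown on feeders, rose in 6 of 30 cases, with a median log2 change of 0.43 and a range of 0 to 9 when 1 library was left out. Lox, which crosslinks collagen, stood at 1.22 and 1.43 CPM in mitotic libraries, 4.87 and 7.46 CPM in early G1, 2.14 and 0.844 CPM in late G1, and 130 and 99.7 CPM in asynchronous cells. Postn, the periostin gene, stood at 0.885 and 0.907 CPM against 2.65 and 2.40 CPM, and at 0.456 and 0.375 CPM in late G1. Tnc, the matrix gene tenascin C, which is not on the list, rose from 0.674 and 0.907 CPM to 8.03 and 7.42 CPM, and stood at 94.9 and 80.4 CPM in asynchronous cells. Thbs1, Thbs2, Col1a1 and Fbln2 rose with log2 changes between 0.67 and 1.92. Their levels lay lower in late than in early G1, but no gene passed the test between these states. Thbs2 had the log2 change of 1.92, which was 2.59 without mitotic library 2. The summed level of the list was 1444 and 1237 CPM in mitotic, 1371 and 1467 CPM in early G1 and 4678 and 3874 CPM in asynchronous libraries. Ankrd1, the 1 actin, SRF and YAP gene that rose, stood at 0.716 and 0.561 CPM in mitotic libraries. In early G1 it stood at 2.60 and 2.70 CPM, and in asynchronous libraries at 10.9 and 13.6 CPM. It was not called under the filter of 1 CPM in 4 samples (adjusted p = 0.0543). The part of feeder cells in these rises was not tested.

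Two-cell-like genes, which mark rare cells that resemble the cleavage embryo, fell in 14 of 26 cases, with a median log2 change of -2.17, a range of 1 to 22 when 1 library was left out and 22 in the 6 synchronised libraries. Gm20767 stood at 8.13 and 7.08 CPM in mitotic libraries, 0.756 and 0.773 CPM in early G1 and 1.23 and 1.41 CPM in late G1 (log2 change -3.31 ± 0.24, adjusted p = 9.88e-04). It was called in every fit, and Tmem92, Zfp352 and Usp17lc, with log2 changes of -1.60, -3.42 and -1.92, were called with all libraries. Duxf3, the gene of the activator Dux, stood at 1.31 and 1.25 CPM against 0.850 and 0.695 CPM and did not pass the test (adjusted p = 0.368). Many members have near-identical copies, so values of single genes are uncertain.

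**Figure D5:**
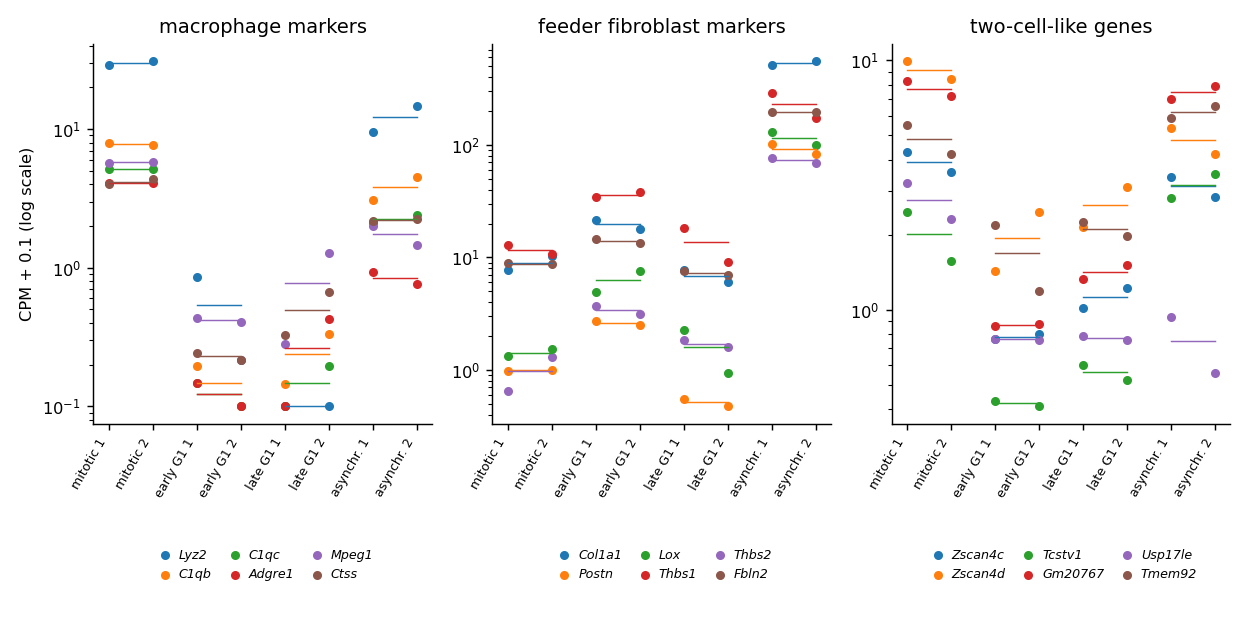
Level in CPM + 0.1 on a log scale (vertical axis) of 6 macrophage markers, 6 feeder fibroblast markers and 6 two-cell-like genes in each of the 8 libraries (horizontal axis), with 1 point per library and a bar at the mean of each pair. Lyz2 lies near 30 CPM in mitotic libraries and under 1 CPM in early G1, and Lox lies below 8 CPM in the 6 synchronised libraries and near 100 CPM or above in asynchronous ones.

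Of 27 heat shock genes, which encode chaperones and their regulators, 0 were called by edgeR and 0 by DESeq2 in the fits of all 8 libraries, and 1 had an unadjusted p under 0.05, a fall. In the 6 synchronised libraries 3 fell, 11.1% of the list and 11.1% of all genes. Of 50 genes of ribosome biogenesis and RNA polymerase I 2 rose, Utp15 and Taf1d, with a median log2 change of -0.0041. That was 4% of the list, against 3.21% of all genes, and in the 6 synchronised libraries 9 rose and 9 fell, 18% each. Of 36 genes of transcription elongation and acetyl-lysine readers 1 rose, Brd2, which binds acetylated histones, at 331 and 300.1 CPM against 466 and 477 CPM (adjusted p = 0.0498, leave-one-out maximum 0.349, and 0.0564 with scaling by library size only). In the 6 synchronised libraries 4 rose and 1 fell, 11.1% and 2.78% of the list. Of 33 genes of the integrated stress response and of amino acid supply 3 fell, Trib3, Ddit3 and Slc7a11, 9.09% of the list against 1.42% of all genes. In the 6 synchronised libraries 9 fell and 2 rose, 27.3% and 6.06%. Slc7a11, a cystine transporter gene, was not called by DESeq2 (adjusted p = 0.149). Trib3, a pseudokinase gene, stood at 45.8 and 61.0 CPM in mitotic and 26.4 and 24.6 CPM in early G1 libraries (log2 change -1.07 ± 0.18, leave-one-out maximum 0.211).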

How the data were processed

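The table that the authors deposited holds unnormalised whole-number counts, 54838 Ensembl gene IDs by 8 samples, per the file headers. TopHat2, SAMtools, HTSeq and the build mm10 are named, without versions or roles, per the submitters' processing notes. The kit marked strands and selected poly(A) RNA, per the labels' protocols, and the counting's strand setting is not given in the sources used here, so antisense and overlapping genes are uncertain. RNA extraction is described in the labels for asynchronous cells alone. Titles set the groups, and the description of early G1 replicate 2 reads EG2 in place of EG1.

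Genes were named with GENCODE M21 (GRCm38, 1-based coordinates), which matched 54809 IDs. In R 4.3.3 with edgeR 4.0.16, filterByExpr (minimum count 10) left 19101 genes, and the quasi-likelihood test (TMM, robust, two-sided, no replicate block) was fitted to all 8 libraries with 4 residual degrees of freedom. Adjusted p is from edgeR unless another tool is named, and SE is that of the log2 change. Total counts per library were between 20410621 and 25615244, and 3 counts equalled 0.116 to 0.152 CPM, floors that cover counting error only.

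The members and the 26 gene lists were chosen with earlier results of these data known, so lists are described by counts and medians, without a test. Genes were named by a rule: per direction the 15 largest changes (called, mean log2 CPM 2 or more, groups not overlapping, clone names left out), the 3 smallest p per list and direction, and list members where a list's count is given. Arl6ip1, Marco, the snoRNA genes shown and the genes outside the lists were chosen after their values were seen. A few genes chosen this way are not reported here. Promoters were matched for 12246 genes, but for only 59.9% and 61.0% of genes that rose and fell, so motif shares of those sets were void and are not given. On simulated data of 18518 genes the test called 54 of 100 genes changed 2-fold and 95 of 100 changed 4-fold, with 10 false calls. The simulation gave every group the same spread and changed no genes of low level. The real coefficients of variation were 0.183 in mitotic, 0.0506 in early G1 and 0.291 in asynchronous libraries, so these rates may not hold for the real data. Other fits, scalings and filters, DESeq2 1.42.0 and leaving out each library were tried as alternatives.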

Additional observations from a re-analysis of the deposited data

How the results depend on the processing

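Against 885 genes called (613 higher, 272 lower, 605 changed at least 2-fold), early G1 and mitotic libraries alone gave 2759 (1704, 1055 and 1031), and the 6 synchronised libraries 4435 (2407, 2028 and 1254). No filter on low counts gave 2362 (1540, 822 and 1251). Leaving out 1 library gave 42 to 4518 genes, 35 to 2455 higher, 7 to 2063 lower and 42 to 1328 changed at least 2-fold. Leaving out mitotic and asynchronous replicate 1 together, chosen after seeing the data, gave 7918 (4107, 3811 and 1700). DESeq2 called 1280 genes, 438 of them lower, and at an adjusted p under 0.01 edgeR called 147. Scaling by RLE, upper quartile or library size and a filter of 1 CPM in 4 samples gave between 726 and 869 genes. None of the 88 genes named by the rule changed direction under any of these, although Slc7a11 was not tested under the 1 CPM filter. They were named because they were called, with libraries that did not overlap, so a change of direction was unlikely from the start. Of the 88, 64 and 68 lost the call without early G1 library 1 or 2, 63 and 46 without mitotic library 1 or 2, and 35 without either late G1 library. The share of calls that were higher was 69.3%, and 54.3% in the 6 synchronised libraries. In the fit with the replicate number as a block 803 genes were called, 570 higher and 233 lower, without Ndc80, Tuba3a, Tubb4a, Slc7a11 and Notum (adjusted p = 0.0606, 0.0662, 0.0603, 0.0586 and 0.0516). Differences between libraries 1 and 2 correlated at -0.135 between mitotic and early G1 and at 0.621 between mitotic and asynchronous groups. Between early G1 and asynchronous groups they correlated at -0.365. These values do not settle whether any samples are paired, and the numbers were not used as pairs in the main fit. Swapping the numbers of the 2 early G1 libraries alone in the block, chosen after seeing the data, gave 1272 genes, 413 of them lower. Depth limits genes under 0.152 CPM.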
